A study of Drosophila melanogaster with 2 samples.

Results

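The genes described here encode the subunits of the proteasome in Drosophila melanogaster, and the question was where E2f2 sat at their promoters in embryos. They were chosen by symbol from the protein-coding genes of the dm6 annotation: every gene whose symbol starts with Prosalpha or Prosbeta, or with Rpn or Rpt followed by a digit. This gave 48 of the 13968 protein-coding genes on the chromosome arms. Of these, 32 are the ubiquitous subunits and 16 are paralogues whose symbols end in T or R, with or without a number. The rule itself reads symbols and no measured value, although the set was proposed with earlier results of these data known.

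The data were peak lists from chromatin immunoprecipitation followed by sequencing (ChIP-seq) in 1 group, E2f2-eGFP embryos, with 2 biological replicates. The flies carried a transgene for E2f2 fused to eGFP, a green fluorescent protein, and the embryos were whole and aged 0 to 24 h. By the description, an antibody against GFP was used to pull down the chromatin, whereas the antibody field of the labels names E2f2. No other genotype, treatment or stage was analysed here, so no conditions were compared. Whole embryos of this age mix many tissues and stages and contain no adult testis, so the lists do not describe these promoters in that tissue.

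E2f2 is the repressive E2F of the fly. It binds DNA together with Dp and acts with the retinoblastoma proteins Rbf and Rbf2, in part within the dREAM complex. The proteasome degrades proteins tagged with ubiquitin. Its 20S core is built of alpha rings, which gate the entrance, and beta rings, which carry the proteolytic sites. The 19S particle caps the core: its base holds a ring of Rpt ATPases that unfold substrates together with several Rpn proteins, and its lid, made of Rpn proteins, removes the ubiquitin chain. The fly genome also holds duplicate subunit genes, several of which are known for expression in the testis; Prosalpha6T is needed for male fertility.

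A gene was called bound when a peak summit of the authors' conservative list, made from both replicates, lay within 500 bp of any of its transcription start sites (TSSs). The ubiquitous subunits were bound at 26 of 32 genes (81.3%, exact Clopper-Pearson 95% interval 63.6 to 92.8%). The paralogues were bound at 2 of 16 genes (12.5%, interval 1.55 to 38.3%), and the background over all protein-coding genes was 40.7%. The share of the ubiquitous subunits was thus above the background and that of the paralogues below it, and the interval of each class left out the background share. For the paralogues this was by a narrow margin, with an upper limit of 38.3%. Each class also counts as unbound a gene whose lack of a peak carries no information, described below. These intervals treat genes as independent draws and cover counting error only.

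The separate lists of the replicates gave the same order of the classes. In the list of replicate 1, 20 of 32 ubiquitous subunits were bound (62.5%, interval 43.7 to 78.9%), 2 of 16 paralogues, and 33.5% of all genes, a background that here fell inside the paralogues' interval. In the list of replicate 2, 28 of 32 ubiquitous subunits were bound (87.5%, interval 71.0 to 96.5%), 2 of 16 paralogues, and 42.1% of all genes. The larger list of the series, which was also made from both replicates, held 29 of 32 ubiquitous subunits (90.6%, interval 75.0 to 98.0%), 2 of 16 paralogues, and 44.1% of all genes. The paralogue count came from the same 2 genes in each list, Prosbeta2R2 and Rpt3R. In the conservative list and both replicate lists together, 19 ubiquitous subunits, both of these paralogues and 31.8% of all genes were bound.

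**Figure D1:**
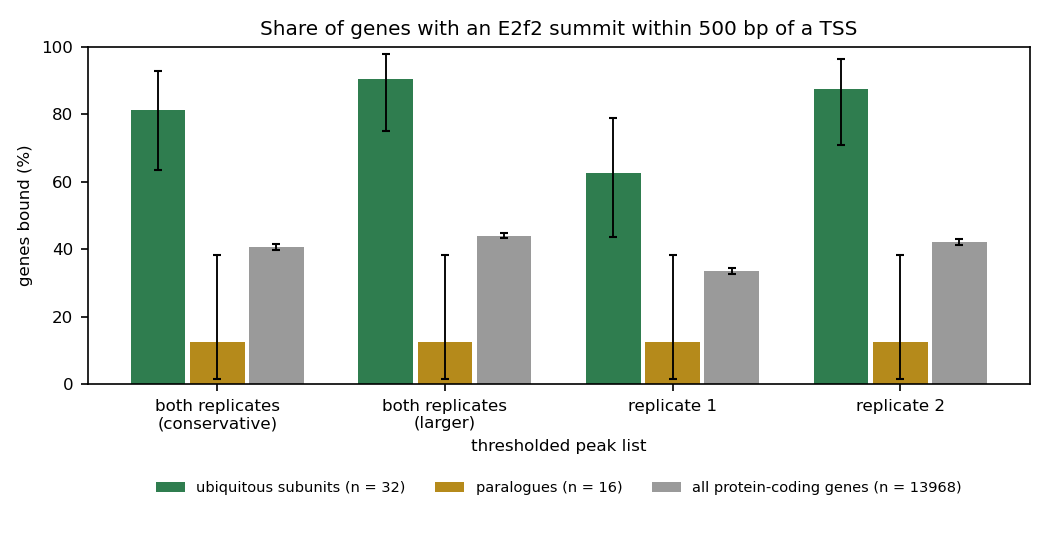
Share of genes bound (%, y axis) in the conservative and the larger list made from both replicates and in the list of each replicate (x axis), for the 32 ubiquitous subunits, the 16 paralogues and all 13968 protein-coding genes; error bars are exact 95% binomial intervals. The ubiquitous subunits stood at 62.5 to 90.6% and the paralogues at 12.5% in each of the 4 lists, against 33.5 to 44.1% of all genes.

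For 2 members the absence of a peak carries no information, and both were kept as unbound in the counts of classes and pairs. Prosalpha1 and its paralogue Prosalpha1R are neighbouring near-identical copies, and 0% of the 31-base words within 500 bp of their TSSs occur once in the genome. Of the 178 protein-coding genes with no such unique word around their TSSs, 0 had even a ranked entry in the conservative series list, whereas 72.1% of the genes with at least 50% unique words had one. The sources used here do not say how reads with several matches were treated.

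The alpha ring opens and closes the gate of the core, and 4 of its 7 ubiquitous genes were bound (57.1%, interval 18.4 to 90.1%, which holds the 40.7% of all genes). Each value below is the signal value of the gene's strongest entry, a measure of enrichment from the authors' peak caller that has no stated unit, in the conservative list of both replicates, in replicate 1 and in replicate 2. The values of the series list and of a single replicate are on different footings, so they are compared within a list only. Prosalpha5 was the highest of the ring, with 360.9 in the series list, 179.0 in replicate 1 and 183.3 in replicate 2. Prosalpha7 had 235.3, 101.8 and 140.4 and Prosalpha2 had 229.9, 95.4 and 135.7, so these neighbours in the order lay close together. Prosalpha6 was the lowest bound gene of the ring, with 82.3, 45.1 and 51.5.

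The remaining alpha genes show where the threshold fell. The ranked lists also hold entries that failed the irreproducible discovery rate (IDR), a measure that is low where repeated rankings place a peak alike; entries in the conservative list and in the replicate lists had a −log10 IDR of at least 2. The ranked entry of Prosalpha3 had a signal value of 63.2 and a −log10 IDR of 1.77, just under the threshold, and the gene was bound in both replicate lists, at 61.5 and 45.8. Its nearest conservative summit lay 568 bp away, just outside the window. Prosalpha4 had a ranked signal value of 72.3 and a −log10 IDR of 0.151, with 36.6 in replicate 1 and 52.1 in replicate 2, and passed the threshold in replicate 2 but not in replicate 1. Both genes were bound in the larger list, at 63.2 and 72.3. The bound members nearest the threshold were Prosalpha6, with a −log10 IDR of 2.34, and Rpn8, with 2.39.

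In the beta ring, 5 of the 7 ubiquitous genes were bound (71.4%, interval 29.0 to 96.3%, which holds the 40.7% of all genes). Prosbeta1, the caspase-like catalytic subunit, was the strongest, with 519.8 in the series list, 178.4 in replicate 1 and 326.1 in replicate 2. Prosbeta5, the chymotrypsin-like catalytic subunit, had 227.3, 97.5 and 126.6. Prosbeta2, the trypsin-like catalytic subunit, was not bound in any thresholded list: its ranked entry had 65.6 with a −log10 IDR of 1.68, and 32.0 and 35.8 in the replicates. The catalytic subunits thus did not stand together. Among the structural subunits, Prosbeta3 had 215.3, 64.4 and 155.1, Prosbeta7 had 164.8, 42.2 and 120.0, and Prosbeta6 had 133.5, 50.3 and 73.1. Prosbeta4 was the weakest ubiquitous gene with any entry, at a ranked 24.0 in the series list and 25.4 in replicate 2, with none in replicate 1.

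The promoters of Prosbeta6 and Prosbeta2 are shown because both hold the binding site of DREF, TATCGATA, and only Prosbeta6 was bound. DREF is a transcription factor of many genes for growth and replication in the fly. Each sequence is the 190 bases before the TSS, 5′ to 3′ on the strand of the gene, from the RefSeq copy of the dm6 assembly, with the DREF letters in capitals. The first is chr3L:16610419-16610608 on the minus strand, where the summit is base 149 and the centre of the match lies 1 bp from it. The second is chr3L:14999761-14999950 on the plus strand, where the match starts at base 181, just before the TSS.
Prosbeta6: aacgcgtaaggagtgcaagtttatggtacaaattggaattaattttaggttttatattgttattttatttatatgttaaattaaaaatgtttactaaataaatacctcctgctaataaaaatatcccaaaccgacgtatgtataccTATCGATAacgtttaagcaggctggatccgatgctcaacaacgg
Prosbeta2: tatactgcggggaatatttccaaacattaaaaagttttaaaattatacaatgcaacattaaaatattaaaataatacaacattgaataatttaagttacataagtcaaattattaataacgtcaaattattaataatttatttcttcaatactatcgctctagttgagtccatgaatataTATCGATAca

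The ATPase ring was bound at 5 of its 6 ubiquitous genes (83.3%, interval 35.9 to 99.6%, which also holds 40.7%) and held the strongest ubiquitous subunit of all. Rpt2, an ATPase that in yeast helps to open the gate of the core, had 842.7 in the series list, 295.7 in replicate 1 and 549.2 in replicate 2, and was the highest of the ubiquitous subunits in each of the 3 lists. The other bound ATPases lay far below it. Rpt6 had 239.0, 77.9 and 152.0, Rpt5 had 169.6, 70.2 and 99.2, and Rpt4 had 134.4 with 94.3 in replicate 2. Rpt1 had 113.6 with 55.7 in replicate 2. Rpt4 and Rpt1 were missing from the list of replicate 1, where their ranked entries had 33.4 and 48.8. Rpt3 was not bound: its ranked entry had 60.3 with a −log10 IDR of 1.79, and 25.2 and 35.1 in the replicates. It was bound in the larger list through a different entry of 48.2.

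Rpt2 shares its upstream region with CG13599, which runs the other way. The stretch between their start sites is chr3R:23931559-23931638, printed on the minus strand, the strand of Rpt2. The summit is base 31, which is 50 bp from the TSS of Rpt2 and 31 bp from that of CG13599. No capitals appear because none of the motifs searched matched there, although this was the highest ubiquitous signal value.
Rpt2: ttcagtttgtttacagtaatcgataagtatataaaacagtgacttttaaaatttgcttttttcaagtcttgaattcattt

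Of the 19S proteins that are not ATPases, 4 of 4 genes of the base (interval 39.8 to 100%) and 8 of 8 of the lid (interval 63.1 to 100%) were bound in the conservative list, against 40.7% of all genes, a share that the interval of the base holds. In the list of replicate 1 it was 3 of 4 and 4 of 8, against 33.5% of all genes. In the base, Rpn1, a large scaffold that in yeast docks carriers of ubiquitinated proteins, had 662.9 in the series list, 240.5 in replicate 1 and 425.0 in replicate 2. Rpn2, the companion scaffold, had 410.1, 144.6 and 262.8. The ubiquitin receptors were lower: Rpn10 had 172.4, 68.7 and 101.3, and Rpn13 had 140.8 with 107.5 in replicate 2 and only a ranked entry of 30.2 in replicate 1.

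In the lid, Rpn11, the enzyme that cuts the ubiquitin chain off the substrate, had the highest values, with 553.0 in the series list, 194.2 in replicate 1 and 343.4 in replicate 2. Rpn6, which in yeast clamps the lid to the core, followed with 325.5, 113.0 and 213.8. The lowest of the lid was Rpn8, the partner of Rpn11, with 76.6 and with 57.0 in replicate 2. Rpn9 had 83.6 with 55.4 in replicate 2, and Rpn12 had 112.7 with 75.4 in replicate 2. The values of the lid thus ranged from Rpn8, the lowest of the bound ubiquitous subunits, to Rpn11, the third highest of them. Rpn8, Rpn9, Rpn12 and Rpn7 were missing from the list of replicate 1, where 4 of the 8 lid genes passed the threshold; their ranked entries there had 27.1, 43.4, 32.0 and 45.8.

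The summit at Rpn11 is shown because it is the densest in motif matches among the bound members. The 141 bases centred on it are chr2L:5060114-5060254, on the minus strand, which is the strand of Rpn11. The summit is base 71, and it lies 394 bp upstream of the TSS in intergenic sequence; the nearest TSS of another gene, qtc, is 631 bp away. Capitals mark 2 DREF matches, centred 0 and 16 bp from the summit, and a run in which the shorter E2F letters TTGGCGC are found on both strands and overlap.
Rpn11: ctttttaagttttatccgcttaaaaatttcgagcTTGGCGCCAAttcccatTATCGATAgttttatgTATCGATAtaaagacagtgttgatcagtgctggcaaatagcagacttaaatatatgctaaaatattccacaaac

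**Figure D2:**
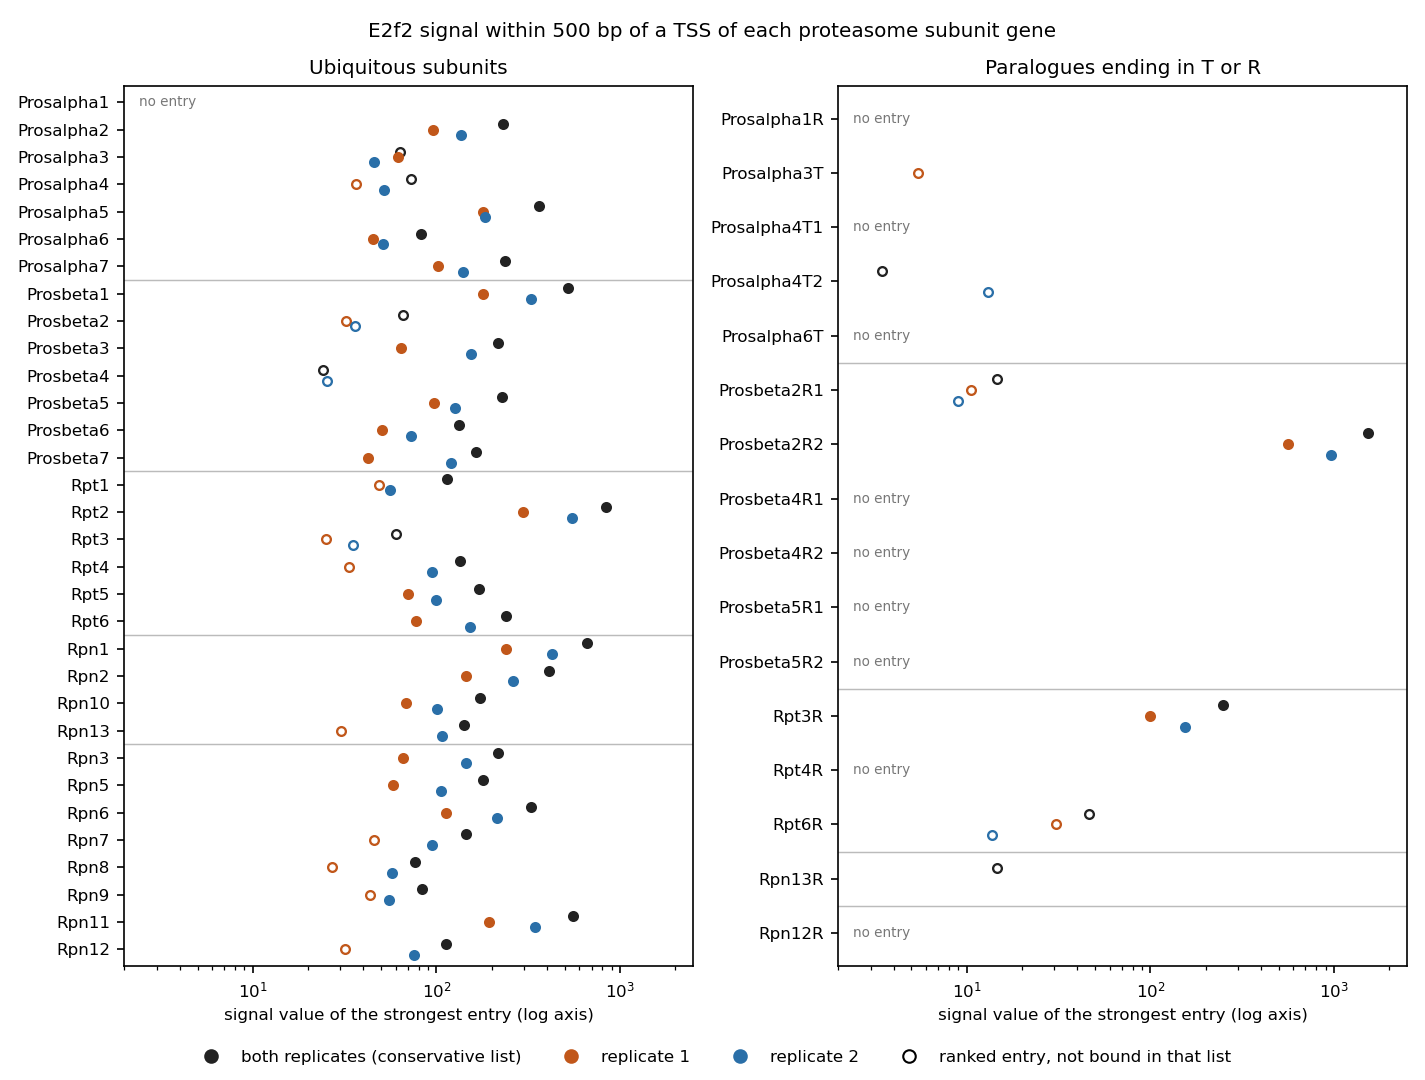
Signal value of the strongest entry within 500 bp of a TSS (x axis, log scale) of each ubiquitous subunit (left) and each paralogue (right), in the conservative list of both replicates, in replicate 1 and in replicate 2; filled points are bound in that list, open points are ranked entries of genes not bound in it, and lines part the alpha ring, beta ring, ATPase ring, other base proteins and lid. Among ubiquitous genes 31 of 32 had a ranked entry in the series list, and Rpt2 was highest at 842.7; among paralogues Prosbeta2R2 at 1525 and Rpt3R at 247.8 stood apart from the other 14.

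Both bound paralogues lay near a strong or middling peak, although that of Prosbeta2R2 is nearer to the TSS of CG1116 and is lost to it when each summit counts for its nearest TSS only. Prosbeta2R2, a duplicate of the trypsin-like catalytic subunit, had 1525 in the series list, 559.7 in replicate 1 and 964.9 in replicate 2. In the series list it ranked 239 of 7312 entries, and its value was above those of all 26 bound ubiquitous subunits. Rpt3R, a duplicate of the ATPase Rpt3, had 247.8, 100.04 and 154.7, above 19 of the 26 bound ubiquitous subunits. Both passed the threshold in each replicate. Their ubiquitous counterparts, Prosbeta2 and Rpt3, were among the 6 ubiquitous genes that were not bound.

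The sequences at these peaks are shown with the upstream region of Prosbeta2R1, the other duplicate of Prosbeta2, for comparison. The gene Prosbeta2R2 (FBgn0037296) lies on the minus strand and starts back to back with CG1116; the stretch between the start sites is chr3R:5219529-5219656, where the summit is base 25, 104 bp from the TSS of Prosbeta2R2 and 25 bp from that of CG1116. At Rpt3R (FBgn0037742, minus strand) the summit lies in an intron of the longer transcript, 107 bp upstream of an inner TSS (another summit lay 21 bp from a TSS), and chr3R:9756251-9756391 shows the 141 bases centred on it at base 71. A DREF match, in capitals, is centred 65 bp from that summit. The 190 bases before the TSS of Prosbeta2R1 (FBgn0029812, plus strand) are chrX:5808764-5808953. No other motif searched matched in these stretches.
Prosbeta2R2: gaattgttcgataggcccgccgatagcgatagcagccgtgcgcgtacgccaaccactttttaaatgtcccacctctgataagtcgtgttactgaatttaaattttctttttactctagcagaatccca
Rpt3R: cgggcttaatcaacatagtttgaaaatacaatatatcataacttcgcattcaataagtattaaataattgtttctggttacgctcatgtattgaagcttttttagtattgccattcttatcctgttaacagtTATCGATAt
Prosbeta2R1: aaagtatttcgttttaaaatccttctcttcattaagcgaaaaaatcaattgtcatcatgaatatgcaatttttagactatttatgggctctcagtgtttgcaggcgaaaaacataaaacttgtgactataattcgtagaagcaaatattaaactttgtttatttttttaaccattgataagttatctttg

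The other 14 paralogues were bound in none of the thresholded lists. Of these, 4 had a ranked entry in the series list: Rpt6R at 46.4, Prosbeta2R1 at 14.6, Rpn13R at 14.6 and Prosalpha4T2 at 3.47. Each of these had a −log10 IDR of 0.140 or less. Prosalpha3T had an entry of 5.45 in replicate 1 only, and 9 paralogues had no entry in any ranked list, Prosalpha1R among them. In all, 6 of 16 paralogues had a ranked entry in the series list (37.5%, interval 15.2 to 64.6%), against 31 of 32 ubiquitous subunits (96.9%, interval 83.8 to 99.9%) and 70.6% of all genes. An unbound gene has no conservative summit within 500 bp by definition. For the unbound paralogues the nearest one was 4020 bp away for Prosalpha3T, the closest, and 146447 bp away for Prosbeta5R2. For the 6 unbound ubiquitous subunits it was between 568 bp away, at Prosalpha3, and 7834 bp away, at Prosbeta2, so the ranges overlapped. Distances of other unbound genes were not examined.

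Each paralogue was then set beside its ubiquitous counterpart, which gave 16 pairs with 12 different counterparts. In 7 pairs the ubiquitous gene was bound and the paralogue was not, and in 7 neither was bound. In the remaining 2 the paralogue alone was bound, and in 0 pairs were both. In 13 pairs the ubiquitous gene had the higher ranked signal value in the series list, counting a gene with no entry as lower; the exceptions were Prosbeta2R2, Rpt3R and the Prosalpha1 pair, where neither had an entry. The order was similar in the replicates, with 11 pairs in replicate 1 and 13 in replicate 2. The duplicates of Prosbeta2 showed both patterns: Prosbeta2R2 had 1525 and Prosbeta2R1 had 14.6, with Prosbeta2 at 65.6 between them.

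**Figure D3:**
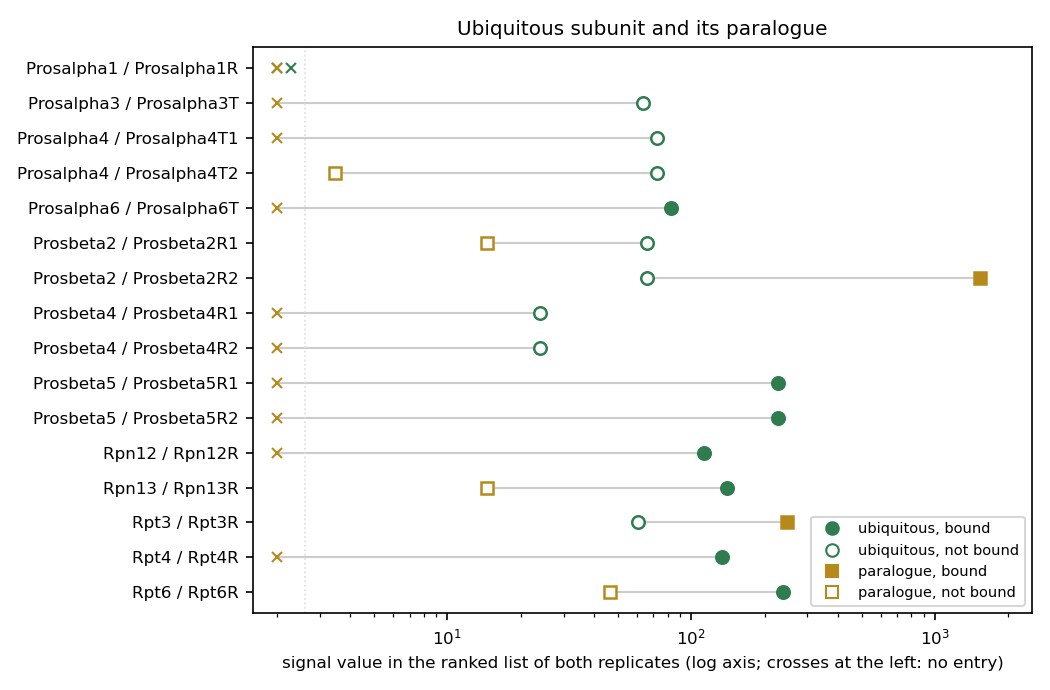
Signal value of the strongest ranked entry in the list of both replicates (x axis, log scale) for each ubiquitous subunit (circles) and its paralogue (squares), 1 pair a line; filled symbols are bound genes, open symbols ranked entries below the threshold, and crosses at the left edge genes with no entry. In 13 of the 16 pairs the ubiquitous gene lies to the right of its paralogue, and Prosbeta2R2 and Rpt3R are reversed.

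The ubiquitous subunits were bound often, with signal values that were not high among bound genes. The median signal value of the 26 bound genes was 196.8, with a range of 76.6 to 842.7, and the 2 bound paralogues had 247.8 and 1525, while the median over all bound protein-coding genes was 252.0. Of the 26, 19 lay below that median and 7 above it. Their median percentile within the list was 55.0, against 63.8 for all bound genes. These comparisons cover only genes that passed the threshold, a larger share of the ubiquitous subunits than of all genes. Among genes with a ranked entry in the series list the order was the opposite. The medians there were 169.6 for 31 ubiquitous subunits and 117.2 for all genes with an entry. Rpt2, ranked 862, was the only ubiquitous subunit at the 1000 entries of highest signal value, which reached 7.82% of all genes.

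The replicates ranked the ubiquitous subunits alike but not on the same scale. Over the 30 with a ranked entry in both replicates, Spearman's rho was 0.830, which describes these genes and their shared libraries. The signal value was higher in replicate 2 than in replicate 1 for 29 of the 30, with a median ratio of 1.77; the exception was Prosalpha3, with 61.5 in replicate 1 and 45.8 in replicate 2. All protein-coding genes with both entries showed a rho of 0.942 and a median ratio of 1.82 (8392 genes). The conservative list held 7 ubiquitous subunits that the list of replicate 1 lacked and 0 that the list of replicate 2 lacked. The part of sequencing depth in this was not tested, since the sources used here give no depth.

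Summits lay close to the subunits' start sites. At the bound ubiquitous genes the median distance to the nearest TSS of the gene was 84.5 bp, and at the bound paralogues it was 104 and 107 bp, against a median of 90 bp over all bound genes. Of the 26 ubiquitous summits 25 were upstream of that nearest TSS and 1 was downstream, at Prosalpha6, which starts 56 bp before it. At Rpn6, Rpn8, Rpn9, Rpn10 and Prosbeta7 the nearest TSS was an inner one. The summit there lay inside the gene, downstream of its 5′ end. With gene 5′ ends only, Rpn6 and Rpn8 were not bound. Over all bound genes 86.3% were upstream. The farthest were Rpn5 at 418 bp, Rpn11 at 394 bp and Rpn13 at 279 bp; Rpn5 also had another summit at 215 bp.

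Many of these promoters face another gene. A protein-coding neighbour on the opposite strand started within 1000 bp upstream at 22 of 32 ubiquitous subunits (68.8%, interval 49.99 to 83.9%), at 4 of 16 paralogues (25%, interval 7.27 to 52.4%) and at 36.2% of all genes. Over all genes, 66.6% of those with such a neighbour and 26.0% of those without were bound. The ubiquitous subunits were bound at 16 of the 22 with a neighbour and at 10 of the 10 without. The paralogues were bound at 2 of the 4 with a neighbour and at 0 of the 12 without. A facing neighbour thus went with binding over all genes, but the ubiquitous subunits without one were all bound; the part of gene arrangement in the difference between the classes was not tested.

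At several shared promoters the summit was nearer to the neighbour, so the peak cannot be given to 1 gene. This was so for 6 ubiquitous subunits. The distances were 116 bp to Prosbeta1 and 5 bp to Rrp42, 279 bp to Rpn13 and 8 bp to CtsL1, and 418 bp to Rpn5 and 1 bp to Hat1. They were 50 bp to Rpt2 and 31 bp to CG13599, 61 bp to Rpt4 and 3 bp to mldr, and 63 bp to Rpt5 and 21 bp to RanBP3. The strongest ubiquitous subunit was thus one of these. Among the paralogues it was so for Prosbeta2R2, at 104 bp, with CG1116 at 25 bp. When each summit was counted for its nearest TSS only, 20 of 32 ubiquitous subunits and 1 of 16 paralogues, Rpt3R, were bound, against 31.6% of all genes.

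**Figure D4:**
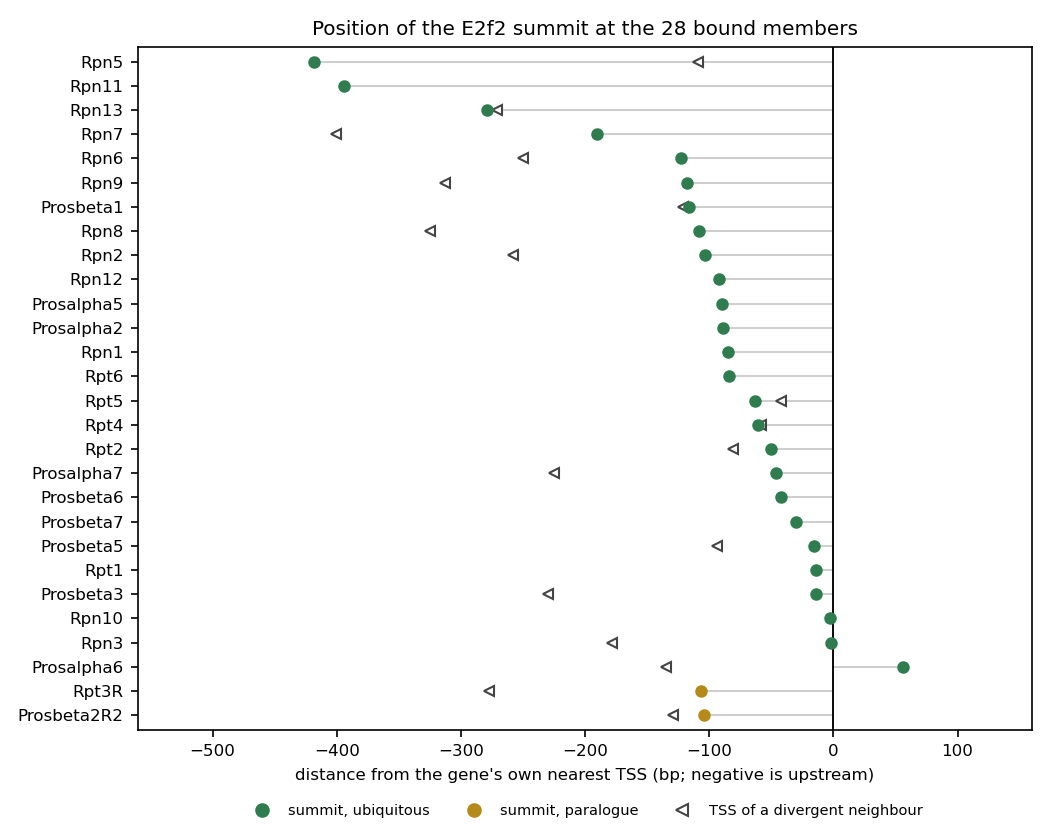
Distance in bp (x axis, negative is upstream) from the nearest TSS of the gene to the summit of its strongest peak (circles) at the 26 bound ubiquitous subunits and, at the bottom, the 2 bound paralogues; open triangles mark the TSS of a neighbour that starts on the opposite strand. All summits but that of Prosalpha6, at 56 bp, lie upstream of that nearest TSS, which can be an inner one of the gene. At Rpn5, Rpn13, Rpt4 and Rpt5 the neighbour starts between the summit and the gene.

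Introns were counted as well, and a gene was taken to have none when it had only a single distinct annotated exon. A gene with unspliced transcripts of different ends has several such exons and is missed, so these shares can be too low. Of the ubiquitous subunits 4 of 32 had no intron (12.5%, interval 3.51 to 29.0%), of the paralogues 5 of 16 (31.3%, interval 11.0 to 58.7%), and of all genes 13.0%. The intervals of both classes overlapped and held the share of all genes. Of the 9 intronless members, Prosbeta3, Rpn7, Rpn12 and Rpt1 were bound and the 5 paralogues were not.

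The letters around the summits were searched on both strands. The E2F site was spelled TTTGGCGC, TTTCCCGC, TTTGCCGC or TTTCGCGC. It was found within 100 bp of the summit at 0 of 26 bound ubiquitous subunits (interval up to 13.2%) and 0 of 2 bound paralogues, against 9.38% of the 4146 summits at protein-coding promoters. With the first T left out, a form that every longer match also meets, 3 of the 26 matched (11.5%, interval 2.45 to 30.2%), at Prosbeta7, Rpt5 and Rpn11, against 18.1% of promoter summits. Within 250 bp the longer form was found at 4 of 26 (15.4%, interval 4.36 to 34.9%), against 15.4% of promoter summits. In this set the peaks therefore rarely lay on the E2F letters, and neither share departed from that of other promoter peaks by more than its interval.

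The DREF letters TATCGATA were the most frequent. They lay within 100 bp of the summit at 8 of 26 bound ubiquitous subunits (30.8%, interval 14.3 to 51.8%) and at Rpt3R of the 2 bound paralogues, against 15.7% of promoter summits. The interval of the ubiquitous subunits held that share of promoter summits. The matches were centred 0 bp from the summit at Rpn11, 1 bp at Prosbeta6, 2 bp at Prosbeta1 and 21 bp at Rpt5, and 65 to 82 bp at Rpn13, Prosalpha6, Prosalpha5 and Rpn3. Of the 8, 4 were within 25 bp, a share of 50%, against 41.8% of the 651 promoter summits with a match. The unbound Prosbeta2 and Rpt3 also had these letters near their ranked entries.

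The same letters were then counted in promoters, taken as 250 bases before to 50 after the 5′ end of the gene. They were found at 12 of 32 ubiquitous subunits (37.5%, interval 21.1 to 56.3%) and at 0 of 16 paralogues (interval up to 20.6%), against 18.1% of all bound genes and 9.36% of all genes. The interval of the paralogues held both of these shares. Inner TSSs were not searched, so the DREF match upstream of the inner TSS of Rpt3R, a paralogue, is not in this count. The unbound ubiquitous genes with a match were Prosalpha3 and Prosbeta2. The E2F letters were found at 1 of 32, Rpn2, and at 0 of 16 paralogues, against 6.41% of all genes.

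Other motifs of promoters were less frequent. The antioxidant response element, TGACNNNGC, is bound by Cnc with Maf-S, activators of proteasome genes. It was found at 5 of 32 ubiquitous promoters (15.6%, interval 5.28 to 32.8%), those of Prosalpha2, Prosbeta3, Rpn1, Rpn7 and Rpt6, and at 1 of 16 paralogues, Prosbeta4R2, against 8.62% of all genes. Motif 1, GGTCACACT, the site of M1BP, was found at 5 of 32 ubiquitous promoters, those of Prosalpha2, Prosalpha4, Prosbeta3, Rpn1 and Rpn7, and at 0 of 16 paralogues. This was 15.6% of the ubiquitous promoters (interval 5.28 to 32.8%), against 12.7% of all bound genes and 6.04% of all genes. Both were found at 4 promoters, but the letters can overlap: at Rpn1 the single match of the response element shares bases with motif 1, while Prosalpha2, Prosbeta3 and Rpn7 each had 1 match apart from it. The letters of the GAGA factor Trl, GAGAGA, were found at 0 of 32 ubiquitous promoters (interval up to 10.9%). They were found at 3 of 16 paralogues, Prosalpha3T, Prosbeta2R2 and Rpt4R (interval 4.05 to 45.6%). The shares were 9.33% of all bound genes and 12.3% of all genes. The interval of the paralogues held both shares, and that of the ubiquitous subunits held the share of bound genes only. A match shows only that the letters are there.

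**Figure D5:**
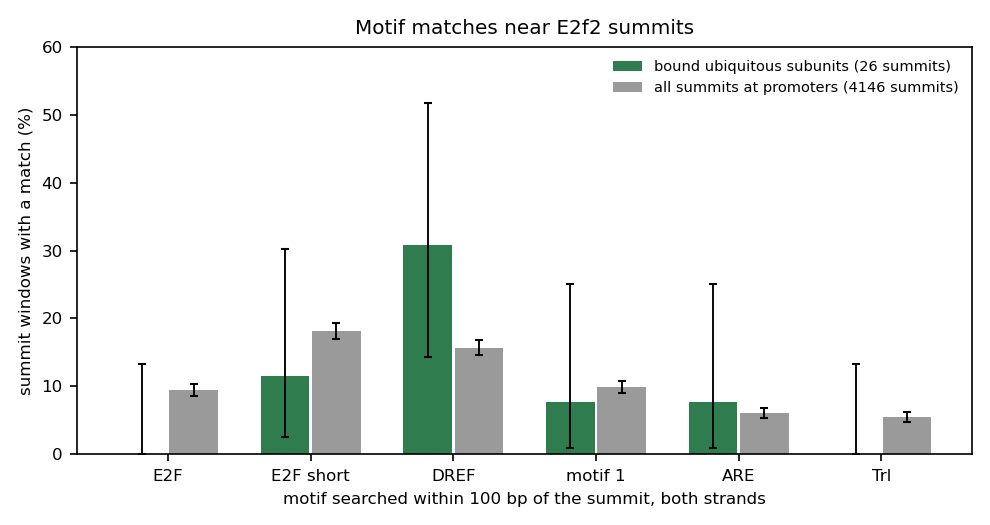
Share of summit windows (%, y axis) that hold each motif within 100 bp of the summit (x axis), at the 26 bound ubiquitous subunits and at all 4146 summits at protein-coding promoters; error bars are exact 95% binomial intervals. The DREF letters stand at 30.8% of the ubiquitous subunits against 15.7% of promoter summits, and the longer E2F letters at 0 of 26 against 9.38%. For both motifs the interval of the ubiquitous subunits holds the share of promoter summits.

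Genes that regulate, assemble or work with the proteasome were examined as a list of 29 names, of which 27 matched a protein-coding gene. Of these 22 were bound, against the background of 40.7%. In both replicates as well, 18 were bound, against 31.8% of all genes. Their median signal value was 237.6, and that of the bound ubiquitous subunits was 196.8. The list and its bound genes are a description, since both were chosen with results of these data known.

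The 4 regulators were all bound, against 40.7% of all genes, with values from high to low. Cnc, encoded by cnc, had 1303 in the series list, 518.0 in replicate 1 and 796.4 in replicate 2, and its partner maf-S had 1038, 357.7 and 684.0. The ubiquitin shuttle gene rngo had 305.9, and Pngl, whose product removes sugar chains from proteins, had 101.4 and was missing from the list of replicate 1. The genes of this activating pair thus had higher values than all 26 bound ubiquitous subunits. The assembly factor Pomp had 275.8, the inhibitor PI31 had 199.5 and the small lid subunit Sem1 had 103.6.

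Ubiquitin genes ranged widely. Uba1, which activates ubiquitin, had 1422 in the series list, 441.2 in replicate 1 and 941.9 in replicate 2. The ubiquitin genes Ubi-p63E, RpL40 and RpS27A had 136.9, 114.4 and 86.3, and Ubi-p5E was not bound. Of the activators and associated factors 5 of 7 were bound, against 40.7% of all genes, with Npl4, a cofactor of the segregase TER94, at 1205, and TER94 itself at 619.0. Usp14 and Rad23 were not bound, and REG, an activator of the core without ATPases, had 84.7 and was bound in neither replicate list. The COP9 signalosome is built like the lid, and 6 of its 8 matched genes were bound, against the same background, with CSN7 at 1149, CSN6 at 885.9, CSN4 at 495.5, CSN3 at 426.9, CSN5 at 188.5 and CSN8 at 110.0. CSN1a and CSN1b were not bound. At 7 of the 22 bound genes of the list the summit was nearer to the TSS of another gene, so the peak cannot be given to 1 gene there: CSN3, CSN4, CSN5, CSN8, REG, Ubqn and Ubi-p63E. At CSN3, for example, the distances were 397 bp to CSN3 and 14 bp to CG11456, and at CSN5 they were 401 bp to CSN5 and 35 bp to CG42232. The summit at RpS27A was 58 bp from its own TSS and 58 bp from that of Ip259, so this peak cannot be given to 1 gene either.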

How the data were processed

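ChIP-seq peak lists of 2 biological replicates of E2f2-eGFP embryos were analysed. Chromatin was sheared to fragments of 200 to 800 bp, per the labels, which name dm6 as the assembly. The sources used here do not give the aligner, the peak caller, the depth of reads or what signal values are relative to. The signal value of each peak was computed by the authors and is used as deposited. The −log10 global IDR comes from the ranked lists as deposited, where each entry of the conservative and the replicate thresholded lists had at least 2, an IDR of at most 0.01; the larger list also holds entries under that value in the ranked list of the conservative set. The ranked lists hold a few more entries at that level than the thresholded lists (7493 and 7312 for the conservative series lists).

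TSSs came from Ensembl release 115 and sequence from RefSeq, both of Release 6 (dm6), whose chromosome lengths held every peak. A gene's value is that of its strongest summit within 500 bp of a TSS. A 31-base word was unique if it occurred once on either strand of the assembly. Intervals are exact Clopper-Pearson at 95%. No test across genes was run, since members and lists were chosen with earlier results of these data known. Every member could be named; other genes are neighbours nearer to a summit and the pathway list, in which 2 names (Ufd1-like and CSN2) matched no symbol. Peak assignment and motif search were tested on simulated data. Python 3.11.15, numpy 2.4.6, pandas 2.3.3 and scipy 1.17.1 were used. The replicate samples were compared by their separate lists, and the alternatives were other lists, windows, reference points and motif forms.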

Additional observations from a re-analysis of the deposited data

How the results depend on the processing

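There were 10 alternatives for binding. The count of bound ubiquitous subunits (26) was 24 with a window of 250 bp and 27 with 1000 bp. It was 26 with peak midpoints, 24 with gene 5′ ends only and 24 where the interval had to cover a TSS. The paralogues stayed at 2 in each of these. Of the 26 bound ubiquitous peaks, 12 were 510 bp wide with the summit at the middle, so midpoints could hardly change their calls. With the 1000 entries of highest signal value, 1 ubiquitous subunit (Rpt2) and 1 paralogue (Prosbeta2R2) were bound, so the medians of signal value became 842.7 and 1525 and the ubiquitous median distance 50 bp; this list is shorter by construction. With each summit counted for its nearest TSS only, 1 paralogue was left, Rpt3R at 247.8. The larger list moved the ubiquitous median signal value to 172.4. Leaving out each replicate in turn means using the separate list of the other, with its own scale: ubiquitous subunits bound 20 to 28, paralogues 2 and 2, ubiquitous median signal value 86.7 to 113.8, paralogue median 329.9 to 559.8, and ubiquitous median distance 56.5 to 92.5 bp. The smaller values of 20 and 86.7 were those of replicate 1 alone, without replicate 2. The E2F motif near the summit was found at 4 ubiquitous subunits within 250 bp and at 3 in the shorter form. Apart from the 1000 strongest entries, 14 members were bound in every alternative; 17 members, 14 of them paralogues, were unbound in every one.

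No paired analysis was possible because the samples form 1 group and no groups were compared. The paralogue values rest on 2 genes. Depth is unknown, so a missing entry does not show that E2f2 was absent, and the intervals cover counting error only. Signal values have no stated unit, and neither an input nor an untagged sample was used here. Peaks of whole embryos cannot tell weak binding in many cells from strong binding in a few.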
